A study of Mus musculus with 9 samples.

Results

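Nuclear receptors are transcription factors that bind lipophilic ligands, and 9 of them that govern bile acid, sterol, xenobiotic and thyroid hormone handling in the liver are described here. They were listed by gene name, with earlier results of these data known: Nr1h4 (FXR, the bile acid receptor), Nr0b2 (SHP, a corepressor that lacks a DNA-binding domain), Nr5a2 (LRH-1), Nr1h3 (LXR alpha) and Nr1h2 (LXR beta), Nr1i2 (PXR) and Nr1i3 (CAR), Rora (ROR alpha) and Thrb (thyroid hormone receptor beta). All 9 were found among the 54532 gene IDs of the count table, and all 9 passed the filter on low counts that left 14763 genes for testing.

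Liver RNA of 9 mice labelled male and ApoE-/-, on a C57BL/6 background, was sequenced, 1 library per mouse and 3 libraries per group. The labels give the Apoe deletion, which raises plasma cholesterol, for every group, so the study has no wild-type control, and 3 libraries go against the labelled sex or genotype, as described below. The normal diet group (replicates 4, 5 and 6) was the control. The HFD + PBS group (replicates 3, 4 and 6) ate a high-fat diet of 4700 kcal/kg, with 41% of calories from fat, from 4 weeks of age for 20 weeks. After 1 week back on chow these mice were injected intraperitoneally with PBS at 25, 26 and 27 weeks and killed at 29 weeks. The HFD + IgG1 group (replicates 5, 6 and 7) had the same diet and schedule, with 3 mg of recombinant human IgG1 in place of PBS. The labels do not say whether normal diet mice were injected, and no age at killing was found for them. Differences given below as with the diet are between these groups, where diet, injection and age cannot be told apart. The 3 livers sequenced in each group were selected on their Oil Red O staining and triglyceride results.

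FXR binds bile acids and induces SHP, which in turn represses LRH-1 at the genes for bile acid synthesis; it also induces the pumps that move bile salts into bile. The LXRs bind oxysterols and drive sterol export and fatty acid synthesis. PXR and CAR respond to foreign compounds and bile acids by inducing cytochrome P450 enzymes and transporters, ROR alpha links the circadian clock to lipid metabolism, and thyroid hormone receptor beta is the main hepatic receptor for thyroid hormone. FXR, the LXRs, PXR, CAR and thyroid hormone receptor beta bind DNA mainly as heterodimers with RXR on repeats of a hexamer close to AGGTCA, whereas LRH-1 and ROR alpha bind as monomers to a single extended copy.

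The windows below are shown because they carry the letters these receptors read, upstream of members whose own levels are described here. RefSeq (GRCm38.p6) gave 12 promoter windows for the 9 genes, each taken as the 250 bases before a transcript start. They were searched on both strands for AGGTCA, the hexamer of the RXR partners, and TCAAGG, the core bound by LRH-1. The 2 motifs overlap where AGGTCAAGG occurs. AGGTCA was found in 3 of the 12 windows and TCAAGG in 2, against 14.0% and 12.5% of the 32851 windows of all genes. Capitals mark the matches, and each sequence is written 5′ to 3′ on the strand of its gene. The Thrb window is printed without its last 68 bases, which GENCODE annotates as exon, and the starts used for Thrb and Nr1h4 lie within the span of the gene.
Nr0b2, chr4:133553126-133553375, plus strand: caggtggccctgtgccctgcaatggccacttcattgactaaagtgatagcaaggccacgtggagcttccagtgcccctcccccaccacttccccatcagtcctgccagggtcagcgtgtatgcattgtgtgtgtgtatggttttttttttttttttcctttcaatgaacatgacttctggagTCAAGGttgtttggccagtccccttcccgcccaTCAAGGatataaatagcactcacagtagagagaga
Thrb, chr14:17660710-17660891, plus strand: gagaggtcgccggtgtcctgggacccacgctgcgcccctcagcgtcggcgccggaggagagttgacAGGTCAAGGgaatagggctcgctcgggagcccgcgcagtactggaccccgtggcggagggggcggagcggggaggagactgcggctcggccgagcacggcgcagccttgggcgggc
Nr1h4, chr10:89506659-89506908, minus strand: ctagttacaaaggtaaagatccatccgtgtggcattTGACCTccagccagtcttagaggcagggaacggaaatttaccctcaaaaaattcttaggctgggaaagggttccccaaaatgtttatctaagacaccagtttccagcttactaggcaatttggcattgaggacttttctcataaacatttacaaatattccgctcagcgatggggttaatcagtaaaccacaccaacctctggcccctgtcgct
Nr5a2, chr1:136960449-136960698, minus strand: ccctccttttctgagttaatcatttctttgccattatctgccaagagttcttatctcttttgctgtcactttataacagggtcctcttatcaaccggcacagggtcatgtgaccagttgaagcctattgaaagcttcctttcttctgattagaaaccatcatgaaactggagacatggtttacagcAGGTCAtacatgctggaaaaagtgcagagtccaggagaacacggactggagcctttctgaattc
The Nr0b2 window, of the gene for SHP, held TCAAGG at 68 and at 35 bases before the start, both in the direction of the gene. In the Thrb window AGGTCA and TCAAGG lay fused as AGGTCAAGG, beginning 184 bases before the start. The Nr1h4 window held AGGTCA on the opposite strand, read here as TGACCT, 214 bases before the start, and the Nr5a2 window held AGGTCA 64 bases before it. The windows of Nr1h3, Nr1h2, Nr1i2, Nr1i3 and Rora had no exact match. A match describes the letters in a window and is not evidence of binding.

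Library depth ran from 16215194 to 18538463 counts, and the lowest count of any member in any library was 298 (Nr0b2), where counting error alone is 5.79%. Composition factors (TMM) ranged from 0.8649 in HFD + IgG1 replicate 5 to 1.2644 in HFD + PBS replicate 3, so the CPM of the last was scaled down most. In all, 3 libraries went against their labels. Apoe, the deleted gene, reached 235888 counts in HFD + IgG1 replicate 5, which is labelled ApoE-/- like the rest, against 225 to 1655 in the other 8, and residual counts can come from undeleted parts of the gene. Xist, which is transcribed from an inactive X chromosome, had 17065 counts in normal diet replicate 5 and 10970 in HFD + PBS replicate 6, against 0 to 4 elsewhere, and Uty, Kdm5d, Ddx3y and Eif2s3y, all on the Y chromosome, summed to 0 in both, although all mice were labelled male. The diet-and-treatment label also reads IgG1 for replicate 5 of the antibody group but IgG2 and IgG3 for replicates 6 and 7, which the titles and series design place with it. Hepatocyte markers, 10 genes such as Alb and Ttr, summed to 71800 to 87700 CPM in normal diet, 49900 to 90200 in HFD + PBS and 83300 to 167000 in HFD + IgG1.

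In levels per kilobase of exon, Nr1h3, Nr1h4, Nr0b2 and Nr1i2 stood highest in normal diet livers and Thrb and Nr1i3 lowest. Nr1h3 had 41.3 ± 5.34 CPM per kb (SD, n = 3), Nr1h4 36.4 ± 5.39, Nr0b2 32.8 ± 22 and Nr1i2 32.0 ± 4.79, and the ranges of these neighbours overlapped. Nr5a2 followed at 15.5 ± 0.281 and Nr1h2 at 12.1 ± 0.722 CPM per kb, each apart from its neighbour above. Rora at 9.38 ± 2.55, Nr1i3 at 7.79 ± 0.359 and Thrb at 7.06 ± 1.13 CPM per kb overlapped one another, and the range of Rora reached that of Nr1h2. Exon length here is the union of all annotated exons, so a gene with long exons that liver transcripts leave out is set too low. Nr0b2 varied most between normal diet mice, from 18.7 to 58.2 CPM per kb, and Nr5a2 least.

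**Figure D1:**
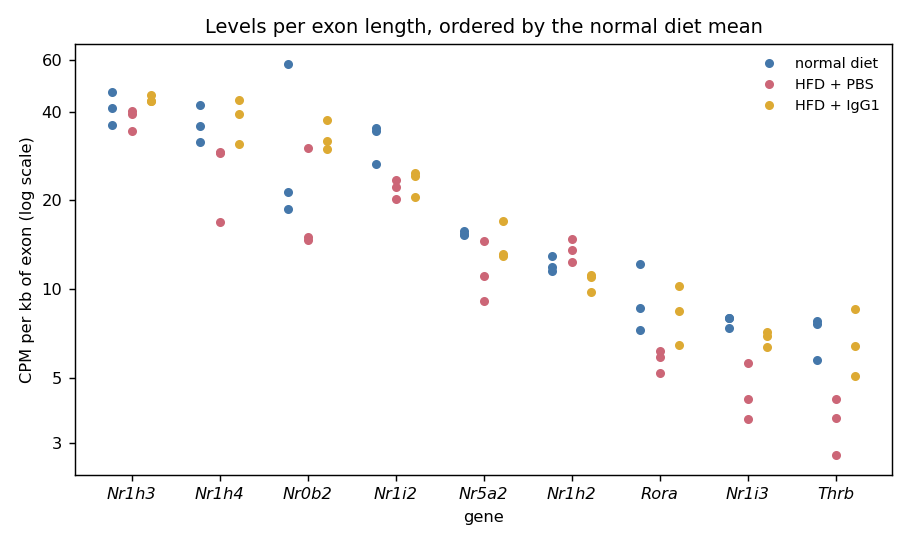
Level of each member in CPM per kilobase of exon (log axis), with 1 point per library and the 3 groups in separate colours. Nr1h3 had the highest mean in normal diet, at 34.3 to 46.7 CPM per kb over all 9 libraries, and Thrb and Nr1i3 sat lowest, at 2.74 to 8.55 and 3.63 to 8.0.

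Most of the 9 receptors had lower levels in HFD + PBS livers than in normal diet livers, with Thrb, Nr1i3, Nr0b2 and Rora the furthest down and the LXRs nearest to 0 in the fit to all 9 libraries. No member passed edgeR's test after Benjamini-Hochberg adjustment over all genes (0 of 9, against 0.00% of all genes tested). At an unadjusted p under 0.05 there were 5 of 9, all lower (Thrb, Nr1i3, Nr1i2, Rora and Nr1h4), against 20.8% of all genes, or 9.41% for higher and 11.4% for lower. The libraries of the 2 groups did not overlap for 6 of 9, again all lower, with Nr5a2 the added gene, against 28.3% of all genes, or 13.0% for higher and 15.3% for lower. The median log2 fold change was -0.55 over the 9 members and 0 over all genes tested. By DESeq2, 3 of 9 passed the adjusted threshold (Nr1i3, Thrb and Nr1i2), against 8.03% of all genes. By limma-voom 0 of 9 did, against 0 of 14763 genes. Without the 3 libraries that contradict their labels, edgeR called 0 of 9, against 2 of 14870 genes. In that fit 6 members were lower at an unadjusted p under 0.05, Nr0b2 being the added gene. Of all genes 15.1% passed that threshold (1118 higher and 1127 lower).

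HFD + IgG1 livers had higher levels of most members than HFD + PBS livers, with Nr1h2 the exception. This comparison uses the same HFD + PBS libraries as the diet comparison, so high or low values in them enter both with opposite signs, and the 2 sets of values are given side by side only. Again 0 of 9 members passed edgeR's adjusted test, against 0.00% of all genes. At an unadjusted p under 0.05 there were 4 higher (Thrb, Nr1i3, Nr1h4 and Rora) and 1 lower (Nr1h2), against 24.2% of all genes, or 12.6% for higher and 11.6% for lower. The groups did not overlap for 5 higher, with Nr1h3 the added gene, and 1 lower, against 26.5% of all genes, or 15.3% and 11.2%. The median log2 fold change was 0.54 over the members and 0.04 over all genes, and the members' median was 0.33 without HFD + IgG1 replicate 5. DESeq2 called 2 of 9 (Nr1i3 and Thrb), against 8.93% of all genes, and limma-voom called 0, against 0 of 14763 genes. Without the 3 libraries that contradict their labels, edgeR called 0 of 9, against 0 of 14870 genes. Thrb and Nr1i3 were the 2 left at an unadjusted p under 0.05, against 8.40% of all genes (607 higher and 642 lower). The members' median was 0.34 in that fit.

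Between HFD + IgG1 and normal diet livers, most members had log2 fold changes within 0.20 of 0, Nr1i2 being the exception. No member passed edgeR's adjusted test (0 of 9, against 0.00% of all genes), and 1 of 9 was lower at an unadjusted p under 0.05 (Nr1i2), against 7.04% of all genes, or 3.83% for higher and 3.21% for lower. The groups did not overlap for Nr1i2, Nr1i3 and Nr1h2, all lower in HFD + IgG1, against 11.9% of all genes, or 5.54% for higher and 6.41% for lower. The members' median log2 fold change was -0.11, with -0.22 to -0.03 when 1 library was left out. DESeq2 and limma-voom called 0 of 9, against 0.799% of all genes by DESeq2 and 0 of 14763 by limma-voom. Without the 3 libraries that contradict their labels the median was -0.26, Rora was at -0.50, Thrb at -0.44 and Nr1i2 at -0.63, and 1 of 9 had an unadjusted p under 0.05, against 3.54% of all genes. A p that misses the threshold does not show that these levels were equal.

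**Figure D2:**
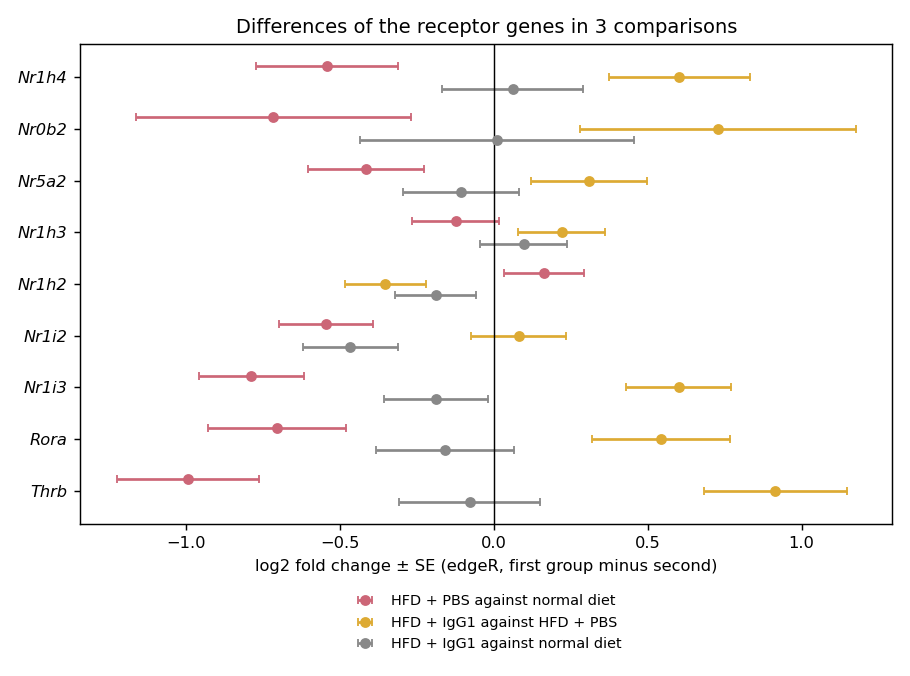
Log2 fold change of each member (x axis) in the 3 comparisons, with bars of 1 SE from edgeR's fit over 9 libraries. In HFD + PBS against normal diet Thrb lies furthest left at -0.99, and in HFD + IgG1 against HFD + PBS it lies furthest right at 0.91.

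In bulk liver RNA, fewer cells of a type and less RNA per cell cannot be told apart. Markers of some other cells differed between the groups as well. Summed neutrophil markers (9 genes) ranged from 36.5 to 197 CPM in normal diet and from 458 to 4260 in HFD + PBS. They ranged from 13.6 to 648 in HFD + IgG1. At an unadjusted p under 0.05, 7 of 9 were higher in the diet comparison, against 9.41% of all genes. In the antibody comparison 2 of 9 were lower, against 11.6% of all genes. Recruited macrophage markers (9 genes) summed to 100 to 178, 326 to 664 and 74.5 to 230 CPM, and cholangiocyte markers (8 genes) to 56.8 to 83.7, 162 to 312 and 64.4 to 116. Spp1 is in both of these lists, so the sums are not independent. Kupffer cell markers (9 genes) summed to 1960 to 2560, 2830 to 3380 and 782 to 2800 CPM. B cell, sinusoidal endothelium and stellate cell markers had median log2 fold changes of -0.08, 0.10 and 0.08 with the diet. With the antibody these medians were -0.68, -0.37 and -0.36. T and NK cell markers (9 genes) had medians of 0.82 and -1.34. Of these, 5 were lower at an unadjusted p under 0.05 in the antibody comparison. The neutrophil marker Ly6g was at 0 in some libraries, and the muscle markers Ckm and Myh4 and the pancreatic markers Amy2b and Cpa1 were at 0 in all 9. None of the 10 hepatocyte markers reached an unadjusted p under 0.05 in the diet comparison, against 20.8% of all genes (median log2 fold change -0.19). In the antibody comparison 3 of 10 were higher, against 12.6% of all genes (median 0.49). The part of these shifts in the receptor values was not tested.

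The sizes of the differences depended on the scaling. With library totals in place of composition factors, a choice made after seeing the data, the median log2 fold change of all genes was 0.174 in the diet comparison and -0.2 in the antibody comparison, in place of 0 and 0.04. With library totals the groups did not overlap for 5 members that were lower with the diet (Nr1h4 dropping out) and 1 that was higher (Nr1h2), against 7.04% and 17.7% of all genes. With the antibody they did not overlap for 2 that were higher (Rora and Thrb) and 1 that was lower (Nr1h2), against 5.61% and 15.4% of all genes. Between HFD + IgG1 and normal diet they did not overlap for 3 that were lower, against 7.41% of all genes. There Nr5a2 took the place of Nr1h2, beside Nr1i2 and Nr1i3. The members' medians were -0.39 and 0.30 with library totals. The sign of Nr1h3 turned in both comparisons, to 0.06 and -0.03, and that of Nr1i2 turned in the antibody comparison, to -0.15.

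**Figure D3:**
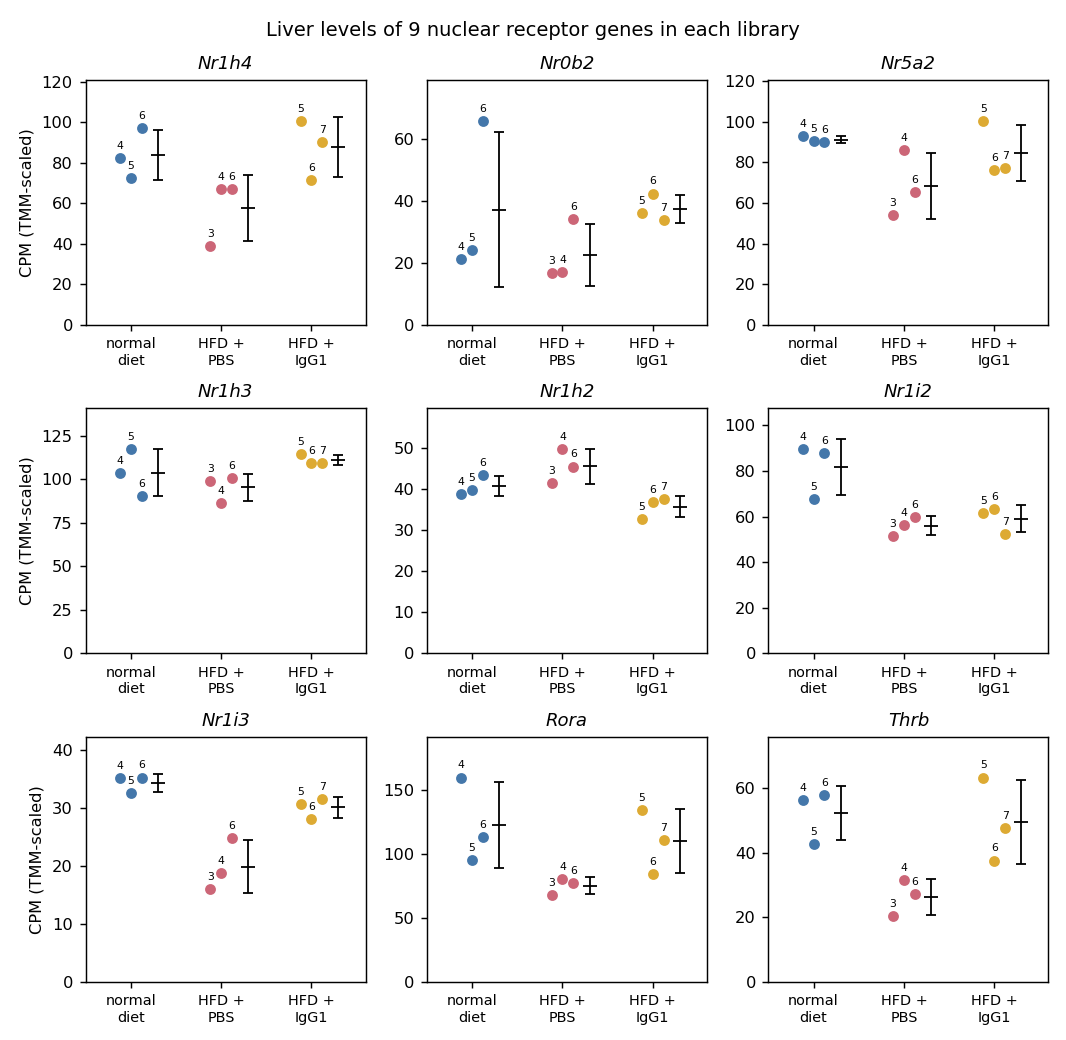
CPM of each of the 9 members (y axis, one panel per gene) in the 9 libraries, grouped by diet and injection, with replicate numbers beside the points and the group mean ± SD in black. Thrb, Nr1i3, Nr1h4 and Rora have all 3 HFD + PBS libraries below all 6 others. Their highest HFD + PBS values are 31.4, 24.9, 67.2 and 80.7 CPM.

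The bile acid receptor FXR was lowest in HFD + PBS. Nr1h4 (ENSMUSG00000047638, chr10:89454234-89533585, mm10) was at 82.1, 72.5 and 97.1 CPM in normal diet mice 4, 5 and 6, at 38.9, 66.9 and 67.2 in the HFD + PBS mice 3, 4 and 6, and at 101, 71.6 and 90.2 in the HFD + IgG1 mice 5, 6 and 7. All HFD + PBS libraries lay below all others, and replicate 3 lay far below its own group. The log2 fold change was -0.54 ± 0.23 (SE, edgeR adjusted p = 0.22) with the diet and 0.60 ± 0.23 (edgeR adjusted p = 0.165) with the antibody. Without HFD + PBS replicate 3 these became -0.30 and 0.36, and HFD + IgG1 against normal diet was 0.06.

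SHP, a target of FXR, varied widely between mice of the same group. Nr0b2 (ENSMUSG00000037583, chr4:133553376-133556536), whose window with TCAAGG is printed above, was at 21.2, 24.2 and 65.8 CPM in normal diet, 16.6, 17.0 and 34.0 in HFD + PBS and 35.9, 42.3 and 33.8 in HFD + IgG1, in order of replicate number. Normal diet replicate 6 stood far above its group, HFD + PBS replicate 6 above its own, and the groups overlapped in every comparison. Its log2 fold change was -0.72 ± 0.45 with the diet (edgeR adjusted p = 0.391) and 0.73 ± 0.45 with the antibody (edgeR adjusted p = 0.336). Without normal diet replicate 6 the diet value was -0.01, and without HFD + PBS replicate 6 it was -1.14 and the antibody value 1.15.

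LRH-1, which drives bile acid synthesis and is held back by SHP, was steady in normal diet mice and lower in HFD + PBS. Nr5a2 (ENSMUSG00000026398, chr1:136842571-136960448) was at 93.2, 90.4 and 90.2 CPM in normal diet, 54.0, 86.2 and 65.3 in HFD + PBS and 101, 76.4 and 77.3 in HFD + IgG1. Each HFD + PBS library lay under every normal diet library, while HFD + PBS replicate 4 lay within the range of HFD + IgG1. In edgeR's fit the log2 fold change was -0.41 ± 0.19 with the diet (edgeR adjusted p = 0.243) and 0.31 ± 0.19 with the antibody (edgeR adjusted p = 0.329). Leaving out HFD + PBS replicate 3 gave -0.24 and 0.14, and leaving out HFD + IgG1 replicate 5, the library with Apoe counts, gave 0.13 for the antibody.

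The LXRs, which sense oxysterols, had the smallest differences with the diet in the fit to all 9 libraries with composition factors. Nr1h3 (LXR alpha, ENSMUSG00000002108, chr2:91184061-91202834) was at 104, 117 and 90.5 CPM in normal diet, 98.8, 86.2 and 101 in HFD + PBS and 114, 109 and 109 in HFD + IgG1. Normal diet and HFD + PBS overlapped, and all HFD + IgG1 libraries lay above HFD + PBS. On the log2 scale the difference was -0.12 ± 0.14 with the diet (edgeR adjusted p = 0.65) and 0.22 ± 0.14 with the antibody (edgeR adjusted p = 0.353). Without normal diet replicate 5 or without HFD + PBS replicate 4 the diet value was -0.03, without normal diet replicate 6 it was -0.22, and without HFD + PBS replicate 4 the antibody value was 0.11. Its exons share 34 bases with Gm13783 on the same strand.

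Nr1h2 (LXR beta, ENSMUSG00000060601, chr7:44549616-44553951) was the member whose direction differed from the rest in the diet and antibody comparisons. Nr1h2 was at 38.8, 39.9 and 43.4 CPM in normal diet, 41.4, 49.8 and 45.5 in HFD + PBS and 32.8, 36.8 and 37.5 in HFD + IgG1. With composition factors HFD + IgG1 lay below both other groups without overlap, and HFD + PBS overlapped normal diet. With library totals HFD + IgG1 overlapped normal diet, and HFD + PBS lay above normal diet. In the fit with composition factors the diet value was 0.25 without HFD + PBS replicate 3. The log2 fold change was 0.16 ± 0.13 with the diet (edgeR adjusted p = 0.501) and -0.35 ± 0.13 with the antibody (edgeR adjusted p = 0.159), and it was -0.19 for HFD + IgG1 against normal diet.

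The xenobiotic receptors PXR and CAR were both lower in HFD + PBS than in normal diet, and they differed in HFD + IgG1. Nr1i2 (PXR, ENSMUSG00000022809, chr16:38248323-38294824) was at 89.6, 67.6 and 87.7 CPM in normal diet, 51.5, 56.5 and 59.7 in HFD + PBS and 61.6, 63.3 and 52.5 in HFD + IgG1. Both high-fat groups lay below normal diet and overlapped each other. Its log2 fold change was -0.55 ± 0.15 with the diet (edgeR adjusted p = 0.12), 0.08 ± 0.15 with the antibody (edgeR adjusted p = 0.768) and -0.47 ± 0.15 for HFD + IgG1 against normal diet (edgeR adjusted p = 0.601). DESeq2 called the diet value, -0.52 at an adjusted p of 0.0443.

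Nr1i3 (CAR, ENSMUSG00000005677, chr1:171213970-171220701) was at 35.3, 32.6 and 35.3 CPM in normal diet, 16, 18.8 and 24.9 in HFD + PBS and 30.8, 28.2 and 31.6 in HFD + IgG1. All HFD + PBS libraries lay below all others, and all HFD + IgG1 libraries lay below normal diet. In edgeR's fit the log2 fold change was -0.79 ± 0.17 with the diet (edgeR adjusted p = 0.0786) and 0.60 ± 0.17 with the antibody (edgeR adjusted p = 0.14). DESeq2 called both, at adjusted p of 0.00433 and 0.0475. Without HFD + IgG1 replicate 6, edgeR called both too, at adjusted p of 0.042 and 0.0473. In that fit 576 of 15214 genes were called with the diet and 2356 with the antibody. No other single library, when left out, gave a call of Nr1i3. With the 3 libraries that contradict their labels left out, the values were -0.99 and 0.74. Nr1i3 shares 3304 exon bases with Tomm40l on the opposite strand, which was at 2.42 to 5.98 CPM, and whether counting used the strand is not given.

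ROR alpha, the receptor tied to the circadian clock, was highest in normal diet replicate 4 and lowest in HFD + PBS. Rora (ENSMUSG00000032238, chr9:68653786-69388246) was at 160, 95.0 and 113 CPM in normal diet, 68.0, 80.7 and 77.0 in HFD + PBS and 134, 84.4 and 110 in HFD + IgG1. All HFD + PBS libraries lay below all others. On the log2 scale the difference was -0.70 ± 0.23 with the diet (edgeR adjusted p = 0.146) and 0.54 ± 0.22 with the antibody (edgeR adjusted p = 0.183). Without normal diet replicate 4 the diet value was -0.43, and without HFD + IgG1 replicate 5 the antibody value was 0.33. No time of day is given for tissue collection. Its exons share 82 bases with the antisense gene Gm15511.

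Thyroid hormone receptor beta showed the greatest distance between HFD + PBS and normal diet among the 9 in the fit to all 9 libraries. Thrb (ENSMUSG00000021779, chr14:17660261-18038090), whose window with the fused motif is printed above, was at 56.3, 42.6 and 57.8 CPM in normal diet, 20.3, 31.4 and 27.1 in HFD + PBS and 63.3, 37.6 and 47.6 in HFD + IgG1. All HFD + PBS libraries lay below all others, and the other 2 groups overlapped. The log2 fold change was -0.99 ± 0.23 with the diet (edgeR adjusted p = 0.0861) and 0.91 ± 0.23 with the antibody (edgeR adjusted p = 0.14). DESeq2 called both, at adjusted p of 0.00671 and 0.0187. Without HFD + IgG1 replicate 6, edgeR called both, at adjusted p of 0.0368 and 0.0148. That fit called 576 of 15214 genes with the diet and 2356 with the antibody. Leaving out any other single library gave no call of Thrb. With the 3 libraries that contradict their labels left out, the values were -1.12 and 0.68, and HFD + IgG1 against normal diet was -0.44 in place of -0.08. Nr0b2 was then further down with the diet, at -1.34. It was also further down than Thrb without HFD + PBS replicate 6 (-1.14 against -1.02) and without normal diet replicate 4 (-0.96 against -0.90).

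**Figure D4:**
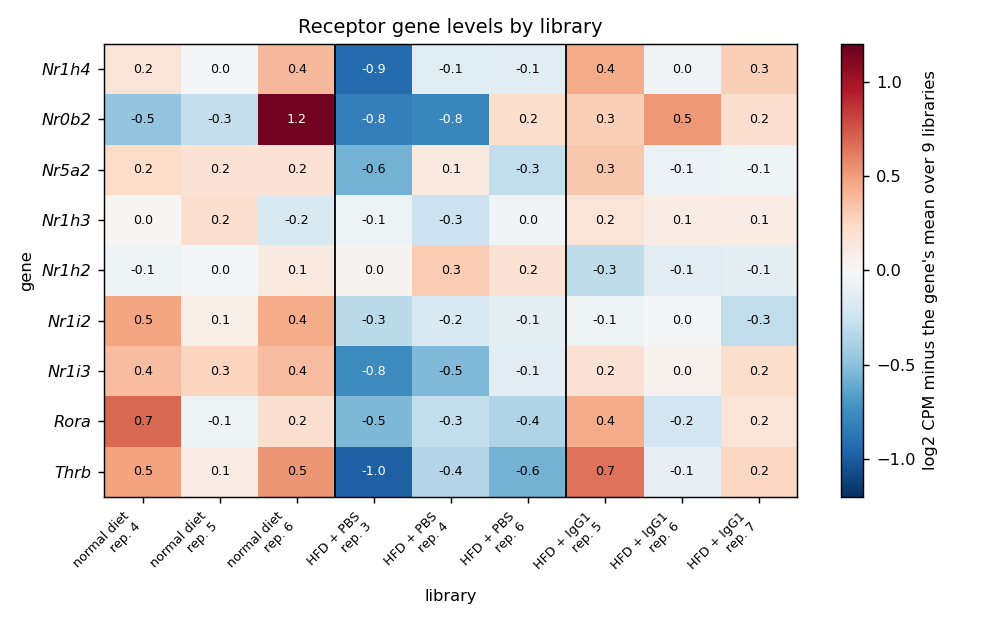
Log2 CPM of each member in each library minus the member's own mean over 9 libraries (colour and printed value). HFD + PBS replicate 3 has the lowest value of Nr1h4, at -0.93, and normal diet replicate 6 the highest of Nr0b2, at 1.16.

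Genes with the most similar pattern were sought over the 9 libraries among 10122 genes with a mean of at least 5 CPM, as the smallest root mean square difference of centred log2 CPM. Closest to Nr1h4 were Cyp4f13 (0.0488), Aldh8a1 (0.0711) and Pcmtd1 (0.082), against a spread of Nr1h4 about its own mean of 0.389. Nr1i3 was closest to Msh3 (0.0777), Maco1 (0.0935) and Cluh (0.0941), with a spread of 0.38, and Thrb to Npr2 (0.11), A1cf (0.113) and Arhgap42 (0.122), with a spread of 0.519. For Rora the nearest was Sos1 (0.0862) and for Nr1i2 Fnip1 (0.0755). Nr0b2 had the greatest distance to its nearest gene, Rida, at 0.291 with a spread of 0.612. Nr1h3 was nearest to Kpna4 (0.076), with a small spread of its own of 0.141. Nr1h2 was nearest to Saal1 (0.0622, spread 0.169) and Nr5a2 to Shroom2 (0.0626, spread 0.268). These are distances over libraries that share groups and depth, given as a description.

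Of 40 other nuclear receptors, 30 passed the filter, and 5 were lower and 0 higher with the diet at an unadjusted p under 0.05, against 11.4% and 9.41% of all genes (median log2 fold change -0.27, with 0 over all genes). With the antibody 7 were higher and 0 lower, against 12.6% and 11.6% (median 0.26, with 0.04 over all genes, and 0.10 without HFD + IgG1 replicate 5). None of the pathway genes named from here on passed edgeR's adjusted test, and later counts use the same unadjusted threshold and the same shares of all genes. Ppara, the fatty acid receptor that drives beta-oxidation, was at 102, 150 and 95.6 CPM in normal diet, 39.3, 29.7 and 41.8 in HFD + PBS and 133, 54.6 and 98.1 in HFD + IgG1, with log2 fold changes of -1.65 ± 0.32 (edgeR adjusted p = 0.078) and 1.37 ± 0.31 (edgeR adjusted p = 0.14). Nr2f2, an orphan receptor, had -0.49 and 0.40. Esrrg, an orphan receptor of energy metabolism, rested on 2 to 7 counts per HFD + PBS library and had -3.40 and 2.98. Rxra, the shared heterodimer partner, was at 657, 614 and 587, then 373, 485 and 463, then 522, 499 and 564 CPM, so HFD + PBS lay below both other groups (-0.49 and 0.26). Hnf4a, which maintains hepatocyte identity, overlapped in both comparisons (-0.15 and 0.24).

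All 19 coregulators, the proteins that receptors recruit to switch genes on or off, passed the filter, and with the diet 1 was higher and 6 lower at an unadjusted p under 0.05 (median -0.22). With the antibody 2 were higher and 0 lower (median 0.05, and 0.01 to 0.16 when 1 library was left out, the ends being without HFD + IgG1 replicate 5 and without HFD + PBS replicate 4). Ncor1, a corepressor, was at 174 ± 25.4 CPM in normal diet and 120 ± 1.00 in HFD + PBS (SD, n = 3; log2 fold change -0.54), and 155 ± 17.6 in HFD + IgG1 (0.37). The coactivators Crebbp (-0.46) and Ncoa1 (-0.40) were also lower with the diet, Prmt1, an arginine methyltransferase, was higher (0.69), and Tbl1x, a subunit of the corepressor complex, had 0.45 with the antibody. Without normal diet replicate 4 Crebbp was at -0.24, and without HFD + IgG1 replicate 5 the antibody values of Tbl1x and Ncor1 were 0.21 and 0.24.

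Target genes were read from lists chosen by name, and some sit in several lists. In the FXR and SHP axis 16 of 18 genes were tested. With the diet 1 was higher and 6 were lower at an unadjusted p under 0.05 (median -0.31, and -0.09 without HFD + PBS replicate 3), and with the antibody 8 were higher and 0 lower (median 0.50). Cyp8b1, which makes cholic acid and is listed under FXR and SHP, LRH-1 and ROR, was at 403, 342 and 716 CPM in normal diet, 9.40, 17.8 and 13 in HFD + PBS and 256, 46.6 and 363 in HFD + IgG1. All HFD + PBS libraries lay below all others, with log2 fold changes of -5.18 ± 0.75 (edgeR adjusted p = 0.0627) and 4.05 ± 0.71 (edgeR adjusted p = 0.14). Cyp7a1, which catalyses the rate-limiting step from cholesterol to bile acids, ranged from 4.15 to 39.6 CPM in normal diet and overlapped in both comparisons (0.77 and 1.22). The bile salt pump Abcb11 had -0.50 and 0.49, the uptake transporter Slco1b2 -0.72 and 0.70, the phospholipid floppase Abcb4 -1.09 and -0.01, and Cyp2c70, which makes muricholic acids, 1.59 and -0.19.

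Among 16 LXR targets, all tested, 5 were higher and 2 lower with the diet (median 0.38), and 3 were higher and 4 lower with the antibody (median -0.02, -0.20 when HFD + PBS replicate 3 was left out and 0.06 when HFD + IgG1 replicate 6 was). The lipogenic enzymes Scd1 and Fasn had 2.31 and 1.43 with the diet, Lpl, a lipase that hydrolyses triglyceride, 1.54 with the diet and -1.47 with the antibody, and the phospholipid-remodelling enzyme Lpcat3 -0.62 with the diet. Srebf1, which encodes the lipogenic factor SREBP-1, was at 49.0, 64.6 and 52.5, then 97.2, 74.0 and 54.8, then 311, 102 and 213 CPM, with HFD + IgG1 above both other groups (0.44 with the diet, 1.47 with the antibody). Abca1, the cholesterol exporter, had 0.06 and 0.04. Of 9 LRH-1 targets, all tested, 0 were higher and 2 lower with the diet, and 3 were higher and 0 lower with the antibody. The diet median of -0.05 was -0.28 when HFD + PBS replicate 4 was left out and 0.15 when HFD + PBS replicate 3 was, and the antibody median of 0.55 was 0.34 without HFD + IgG1 replicate 5. Gls2, a glutaminase, had -0.33 and 0.64, and Abcg8, a sterol transporter, -0.48 and -0.07. With the diet Gls2 was at -0.53 when HFD + PBS replicate 6 was left out and at -0.10 when normal diet replicate 6 was, and Abcg8 was at -0.31 without HFD + PBS replicate 3.

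Of 29 PXR and CAR targets 27 were tested, and 3 were higher and 4 lower with the diet (median -0.18, and -0.04 without normal diet replicate 6), against 9 higher and 2 lower with the antibody (median 0.51). Abcc3, a conjugate exporter, was at 494, 522 and 464, then 240, 226 and 251, then 484, 362 and 397 CPM, with HFD + PBS below both other groups (-1.05 and 0.79). Cyp3a11, a main xenobiotic P450, was at 2074 ± 374 CPM in HFD + PBS and 3789 ± 363 in HFD + IgG1 (SD, n = 3), but ranged widely in normal diet (-0.31 and 0.87). Cyp2c50, another P450, had 0.78 with the antibody. Gstm3, a glutathione transferase, and Cyp2a5, a P450, were higher with the diet (3.78 and 1.86). Cyp2b10, the classic CAR target, had 0 to 24 counts in normal diet, 4 to 27 in HFD + PBS and 7 to 106 in HFD + IgG1, with the highest in replicate 5.

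Of the 14 ROR-responsive genes, all tested, 0 were higher and 6 lower with the diet (median -0.76), and 8 were higher and 0 lower with the antibody (median 0.97). The clock gene Clock had -0.76 and 0.80, and Arntl, its partner, overlapped in both comparisons (-0.32 and 0.60). Hsd3b5, a steroid dehydrogenase, had 0 counts in every HFD + PBS library, and both medians are the same when it is set at its bound against 3 counts per library. G6pc, which releases glucose, and the hepatokine Fgf21 were lower with the diet (-1.97 and -3.33), Fgf21 resting on 0 to 27 counts per HFD + PBS library and standing at -5.43 without HFD + PBS replicate 6. Of 12 thyroid hormone-responsive genes, all tested, 1 was higher and 3 lower with the diet (median -0.18, and -0.29 without HFD + PBS replicate 6), and 2 were higher and 0 lower with the antibody. That median was -0.14, from -0.25 without HFD + IgG1 replicate 7 to 0.07 without HFD + PBS replicate 3. Me1, malic enzyme, was at 92.1, 69.6 and 122, then 16.3, 18.0 and 25.0, then 80.5, 24.1 and 70.0 CPM (-2.26 and 1.56). Cpt1a, the gate of fatty acid entry into mitochondria, had -1.05 with the diet and Thrsp, a lipogenic protein, 1.69. Dio1, the deiodinase that activates thyroid hormone and is a direct Thrb target, ranged from 12.1 to 64.8 CPM in normal diet and overlapped in both comparisons (-0.81 and -0.71).

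**Figure D5:**
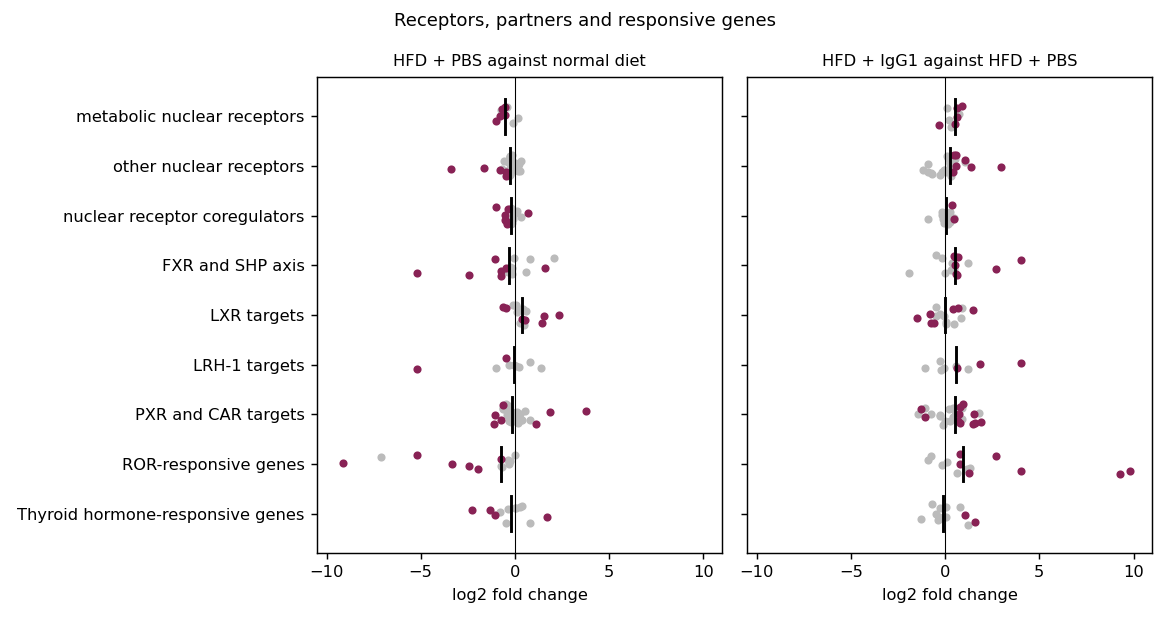
Log2 fold change of each tested gene among the 9 members and 8 pathway lists, for the diet comparison and the antibody comparison, with purple points at an unadjusted p under 0.05, grey points for the rest and a black bar at the list median; Hsd3b5 is drawn at its bound against 3 counts per library. The ROR-responsive genes have medians of -0.76 and 0.97, against -0.55 and 0.54 for the 9 members.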

How the data were processed

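Liver RNA was sequenced from 9 mice labelled ApoE-/-, 3 per group. The authors deposited raw counts for each Ensembl gene, as whole numbers. Per the labels' protocols, 1 library was made from the RNA of each mouse liver with a NEBNext Ultra kit. The submitters' processing notes name mm10 and Bowtie 0.12.2 with no role. The sources used here do not give the counter, its annotation or its use of strand. Depth ran from 16215194 to 18538463 counts per library.

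GENCODE M21 (GRCm38) named 54495 of the 54532 IDs. In R 4.3.3, edgeR 4.0.16 used TMM factors, filterByExpr (minimum count 10, minimum total 15), group means over all 9 libraries, which share one estimate of the spread, robust glmQLFit and the two-sided glmQLFTest, with Benjamini-Hochberg adjustment over 14763 genes and a threshold of 0.05. The dispersion common to all genes was 0.101 (biological coefficient of variation 0.318). Each SE is the unshrunk log2 fold change divided by the root of F. Log2 CPM values used a prior count of 2. DESeq2 1.42.0 and limma 3.58.1 (voom) were alternatives, beside other factors, filters and left-out libraries. The fit was tested on simulated data. None of the 9 pairs of libraries within a group matched within sampling noise, and pairs across groups were not compared.

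The members, gene lists and comparisons were chosen with earlier results of these data known. All 9 members were named, with 12 further genes chosen by name, and from each list the up to 4 genes with the smallest p in the diet comparison and the up to 2 in the antibody comparison. A few of the genes so chosen are not reported here. Similar genes are the 3 nearest. Promoter windows came from RefSeq (GRCm38.p6).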

Additional observations from a re-analysis of the deposited data

How the results depend on the processing

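With edgeR as reported, 0 genes passed the adjusted threshold in any of the 3 comparisons, and this count depended on the test, the filter and the libraries. In HFD + PBS against normal diet it was 1184 by DESeq2, 274 when low counts were not filtered, 184 when only the 6 libraries compared were fitted, 2 without the 3 libraries that contradict their labels and 216 with only the antibody library labelled IgG1, where the lone sample is assumed to vary like the other groups. In HFD + IgG1 against HFD + PBS it was 1265, 57 and 556 by DESeq2, with no filter and with only that antibody library. In HFD + IgG1 against normal diet it was 111 by DESeq2, 6 with no filter, and 3 both with only the 6 libraries compared and with only that antibody library. Leaving out 1 library at a time gave 0 to 576, 0 to 2356 and 0 to 6 genes in the 3 comparisons. The highest values came without HFD + IgG1 replicate 6, and without HFD + PBS replicate 6 the diet comparison gave 14. The cause was not tested.

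Among the alternatives that kept all 9 libraries, member calls in the diet comparison were 3 by DESeq2 and 2 with no filter (Nr1i3 and Thrb). In the antibody comparison they were 2 by DESeq2. With only the antibody library labelled IgG1, which is replicate 5 with its Apoe counts, the antibody value of Thrb was 1.28. Without that library it was 0.66. Leaving out 1 library gave 0 to 2 member calls in each of the diet and antibody comparisons, beside 0 to 576 and 0 to 2356 of all genes. In the 3 comparisons these fits put 13.5% to 24.1%, 11.2% to 33.5% and 3.91% to 15.6% of all genes at an unadjusted p under 0.05. The members at that threshold numbered 3 to 6, 2 to 6 and 0 to 2. Those counts, reported as 5, 5 and 1, became 3 and 2 with library totals, an alternative chosen after seeing the data, for diet and antibody, where 18.9% (1980 higher, 808 lower) and 20.9% (600 higher, 2483 lower) of all genes passed. The antibody count was 2 without the 3 libraries that contradict their labels, and the count against normal diet was 0 with only the antibody library labelled IgG1. Upper-quartile factors moved the split of all genes at an unadjusted p under 0.05 from 1389 higher and 1687 lower to 1658 and 1369 with the diet, and from 1863 and 1706 to 1369 and 1996 with the antibody, where RLE factors gave 1604 and 1838.

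Signs turned for small values. With library totals Nr1h3 went to 0.06 (diet) and -0.03 (antibody) and Nr1i2 to -0.15 (antibody). In HFD + IgG1 against normal diet, library totals gave -0.01 for Nr1h4 and -0.03 for Nr0b2, leaving out the 3 libraries gave -0.16 and -0.20, and no filter gave -0.0005 for Nr0b2. With only the antibody library labelled IgG1, Nr0b2 had -0.04, Nr5a2 0.15, Rora 0.14 and Thrb 0.28. Leaving out 1 library in that comparison gave -0.07 to 0.19 for Nr1h4, -0.26 to 0.72 for Nr0b2, -0.35 to 0.09 for Rora and -0.31 to 0.09 for Thrb. In the diet and antibody comparisons no member changed sign when 1 library was left out.

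The labels name no pairing of the mice, and the main fit used none. Across groups, deviations from group means correlated from -0.494 to 0.007 for same-numbered libraries and from -0.347 to 0.425 for the others. With few such pairs and means of 3 libraries, these values cannot decide whether the numbers pair the mice. With the replicate numbers as a block, 3, 0 and 0 members had an unadjusted p under 0.05 in the 3 comparisons, and 981, 370 and 396 of all genes did.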

Other observations

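Among the ROR-responsive genes, 2 that were singled out after their values were seen split the libraries in a way the groups do not follow. Elovl3, a fatty acid elongase, was at 295 and 558 CPM in normal diet replicates 4 and 6 and at 467 and 469 in HFD + IgG1 replicates 5 and 7. It was at 0.891 CPM in normal diet replicate 5, 1.18 in HFD + IgG1 replicate 6 and 0 to 0.722 in the HFD + PBS libraries. Hsd3b5 followed the same libraries, with 155 and 909 counts in normal diet replicates 4 and 6, 3598 and 2616 in HFD + IgG1 replicates 5 and 7, 1 in each of normal diet replicate 5 and HFD + IgG1 replicate 6, and 0 in HFD + PBS. Normal diet replicate 5 is also a library with Xist and no Y-linked counts. Among the receptors, Nr1h4 (72.5 and 71.6 CPM), Nr1i3 (32.6 and 28.2), Rora (95.0 and 84.4) and Thrb (42.6 and 37.6) were likewise lowest of their groups in normal diet replicate 5 and HFD + IgG1 replicate 6, by smaller factors. The other members did not share this split. Nr1h3 was highest of its group in normal diet replicate 5 (117 CPM), and Nr0b2 in HFD + IgG1 replicate 6 (42.3). Nr1h2, Nr5a2 and Nr1i2 were not lowest of their groups in both of these libraries.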
